A study of Mus musculus with 22 samples.

Results

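The early growth response (EGR) transcription factor genes Egr1, Egr2 and Egr3, the genes of their corepressors Nab1 and Nab2, and the NR4A orphan nuclear receptor genes Nr4a1, Nr4a2 and Nr4a3 were followed in mechanically loaded bone. These 8 genes were chosen by family, as Ensembl gene rows matched to mouse symbols, out of 25471 genes in the deposited tables. Earlier results of these data were known when they were chosen. Total RNA was prepared from ulnae, bones of the forearm cut to their middle stretch, of 11 mice, each of which gave a right limb that had been loaded and a left limb that had not, so that there were 22 libraries. The groups were CKO loaded and CKO non-loaded, from 4 conditional knockouts of Tlr4, and WT loaded and WT non-loaded, from 7 wildtype mice. Tlr4 encodes the receptor for bacterial lipopolysaccharide. The series title places its role in osteoblasts, while the driver of the deletion, the strain, the age, the loading regime and the time of harvest were details not given in the sources used here.

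EGR factors are zinc finger proteins that bind GC-rich DNA, and their genes are immediate-early genes, switched on by existing factors within minutes of a stimulus and then shut off again. Serum response factor on CArG boxes, driven by ERK signalling, is the classical switch of the EGR genes, and the NAB proteins bind EGR factors and repress their targets, so that a rise of Nab2 closes a feedback loop. NR4A receptors have no known natural ligand in the usual sense and are governed by how much of them is made; cAMP signalling through CREB is a main switch of their genes, and exercise raises them in skeletal muscle. In bone, mechanical strain and parathyroid hormone are known to induce members of both families.

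The upstream DNA of the members carries the letters of these switches in different amounts, and is shown so that they can be seen beside the loading data. RefSeq windows of 300 bases (250 before and 50 after a start site, GRCm38.p6) were matched for 6 of the 8 members, 5 windows of them for Egr2 and 1 each for Nab1, Nab2, Nr4a1, Nr4a2 and Nr4a3; Egr1 and Egr3 were not among them. They were searched on both strands for the CArG box, for TGACG, the core of the cAMP response element (CRE), for the full palindromic CRE TGACGTCA, for the EGR site GCGNGGGCG and for the NR4A monomer site AAAGGTCA. TGACG lies within the full CRE, so that these searches overlap. The stretches below are upstream bases outside annotated exons, 5′ to 3′ on the gene's strand, with CArG boxes, TGACG (or its complement CGTCA) and EGR sites in capitals. They are Egr2 at chr10:67537619-67537868 (plus strand), Nr4a1 at chr15:101266596-101266845 (plus strand), Nr4a2 at chr2:57124004-57124253 (minus strand) and Nr4a3 at chr4:48045055-48045152 (plus strand).
Egr2: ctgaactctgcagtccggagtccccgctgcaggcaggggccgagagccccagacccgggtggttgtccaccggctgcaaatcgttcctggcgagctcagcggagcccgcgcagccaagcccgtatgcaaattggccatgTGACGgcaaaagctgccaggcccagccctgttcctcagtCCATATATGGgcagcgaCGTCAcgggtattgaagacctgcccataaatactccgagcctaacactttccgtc
Nr4a1: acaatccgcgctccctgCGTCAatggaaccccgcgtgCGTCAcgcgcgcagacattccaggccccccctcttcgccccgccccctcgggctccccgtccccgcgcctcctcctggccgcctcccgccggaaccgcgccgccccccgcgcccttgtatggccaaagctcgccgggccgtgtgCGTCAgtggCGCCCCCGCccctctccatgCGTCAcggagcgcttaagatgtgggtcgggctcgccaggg
Nr4a2: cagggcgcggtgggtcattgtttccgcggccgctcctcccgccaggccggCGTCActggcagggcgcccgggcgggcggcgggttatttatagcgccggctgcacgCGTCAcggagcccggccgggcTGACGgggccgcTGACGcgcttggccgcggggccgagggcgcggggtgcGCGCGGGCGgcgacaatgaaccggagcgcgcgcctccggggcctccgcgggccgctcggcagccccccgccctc
Nr4a3: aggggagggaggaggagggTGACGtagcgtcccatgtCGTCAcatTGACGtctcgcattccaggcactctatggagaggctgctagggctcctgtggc
A CArG box was found in 4 of the 5 Egr2 windows, against 1.63% of all 32851 windows. Windows 3, 4 and 5 overlap and share 1 box, which the printed stretch holds at positions -72 to -63 from its start. Window 1 of Egr2 held none of the motifs, and windows 3, 4 and 5 each held TGACG 2 times. No CArG box was found in the windows of Nr4a1, Nr4a2, Nr4a3, Nab1 or Nab2. TGACG occurred 4 times in the window of each NR4A gene, in the case of Nr4a3 with 1 of them beyond the printed stretch, and windows with at least 4 made up 0.231% of all; 20.8% held at least 1. The full CRE (1.79% of windows) and AAAGGTCA (1.51%) were in none of the members' windows. GCGNGGGCG, held by 5.55% of windows, occurred 3 times in the window of Nab1, once each in those of Nr4a1 and Nr4a2, and not in that of Nab2. These matches describe letters in 300 bases and no binding was measured.

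Libraries held 21999891 to 42833729 counts, and all 8 members passed the filter on low counts with 18793 genes in all. The lowest count of any member in any library was 77, for Egr2. Of the marker lists, all 6 osteoblast and all 6 osteocyte genes were detected, with none at 0. The libraries also carried skeletal muscle and marrow: the 10 muscle markers, all detected, summed to 95500 to 146000 CPM (counts scaled to library size) in CKO loaded, 18800 to 132000 in CKO non-loaded, 39200 to 132000 in WT loaded and 33000 to 123000 CPM in WT non-loaded libraries. Osteocyte markers summed to 684 to 1410 CPM in CKO loaded and 534 to 610 CPM in CKO non-loaded libraries, which did not overlap. In WT loaded and non-loaded libraries they summed to 728 to 1060 and 571 to 1490 CPM. Osteoblast markers overlapped in CKO mice, at 1500 to 7280 and 2120 to 7250 CPM. No fit had a bone cell score as a covariate, and the part of bone cell content in the loading effects was not tested. Tlr4 itself, counted over all its exons, so that a deleted exon or a loss in 1 cell type need not be visible, lay at 24.9 to 33.8 CPM in the CKO libraries and at 24.9 to 42.2 CPM in the WT libraries. The libraries labelled CKO loaded 688 (38.4 CPM) and WT loaded 686 (380 CPM) stood with the other genotype in Ltbp2, which lay at 205 to 344 CPM in the other CKO and at 26.5 to 73.5 CPM in the other WT libraries. The edgeR fits with groups only and with the mouse as a block were repeated without mice 686 and 688. The fits with DESeq2, limma voom or tissue covariates were not. Loading effects with groups only are given in a paragraph of their own after the NR4A genes where they are not beside the result. Counts of mice, overlaps of groups and correlations used the libraries as labelled and were not repeated without these mice.

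Per length of exon, Nr4a1 was the most abundant member, with 33.6 ± 11.3 CPM per kb (SD over 22 libraries). Nab1 with 9.11 ± 1.4, Egr1 with 8.97 ± 4.73, Nab2 with 6.38 ± 1.47, Egr3 with 6.05 ± 2.12 and Nr4a3 with 4.83 ± 2.34 CPM per kb followed. Of these neighbours, Egr1 lay above Nab2 by more than the SD of Nab2 but less than its own, and the others lay within each other's SD. Egr2 with 1.41 ± 0.538 and Nr4a2 with 1.18 ± 0.292 CPM per kb were lowest, again within each other's spread. Nab1 ran from 7.38 to 12.4 CPM per kb over all libraries, while Egr1 ran from 4.14 to 19.5 and Nr4a3 from 0.823 to 9.8 CPM per kb. The lowest Nr4a3 value was that of CKO non-loaded mouse 691.

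Egr1 (ENSMUSG00000038418, chromosome 18, 34859823 to 34864984, GRCm38) was the member that rose with loading. In CKO mice 688, 691, 693 and 698 it stood at 53.5, 69.6, 69.6 and 87.3 CPM in the loaded limbs, against 19.5, 18.6, 25.9 and 18.9 CPM in the non-loaded limbs. Loaded and non-loaded CKO libraries did not overlap. In WT mice it ran from 31.1 over a median of 45 to 68.2 CPM in the loaded limbs, against 19.2, 22.5 and 53.2 CPM in the non-loaded limbs, where mouse 699 alone stood above 26.7. The WT groups overlapped only through that library, and the loaded limb was the higher in 11 of 11 mice, as it was for 0.165% of all genes tested (0.628% for the 7 WT mice alone).

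The fold change of Egr1 in CKO mice was 3.38 (log2 1.76 ± 0.29, SE; edgeR adjusted p = 0.0366, adjusted over all genes as throughout), in a comparison that called 3 genes or 0.016% of 18793. With the mouse as a block the value was 1.75 ± 0.2 and the adjusted p = 0.0181 (edgeR; 5 genes or 0.0266% called). The call was lost without mice 686 and 688 (1.84 ± 0.36, adjusted p = 0.282), with muscle and marrow scores as covariates (1.85 ± 0.31, adjusted p = 0.0715) and in 9 of 11 fits that left out 1 mouse, where the fold change stayed between 1.6 and 1.88 on the log2 scale. In WT mice Egr1 was 1.79-fold higher (log2 0.84 ± 0.22) and missed the threshold (edgeR adjusted p = 1; 1 gene or 0.00532% called). The WT value was 0.87 ± 0.15 with the mouse as a block (edgeR adjusted p = 0.201; 0.0106% called). Without mouse 699 it was 1.0 on the log2 scale, at adjusted p = 0.0371 in edgeR (0.0107% called), and limma voom with quality weights gave 1.2 ± 0.15 (adjusted p = 0.00172; 34 genes or 0.181% called).

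Taking the mean of the loading effects in CKO and WT mice, Egr1 rose 2.46-fold (log2 1.3 ± 0.18, edgeR adjusted p = 0.00176), in a comparison that called 17 genes or 0.0905% of those tested (11 genes or 0.0585% with the mouse as a block). It was the only one of the 8 members called, and 1 of 8 stands against that background. Unlike the call in CKO mice alone, this call was kept in all 23 alternative fits, with a log2 fold change between 1.22 and 1.38 and an adjusted p no higher than 0.0436, the value without mice 686 and 688 (0.0792% called).

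**Figure D1:**
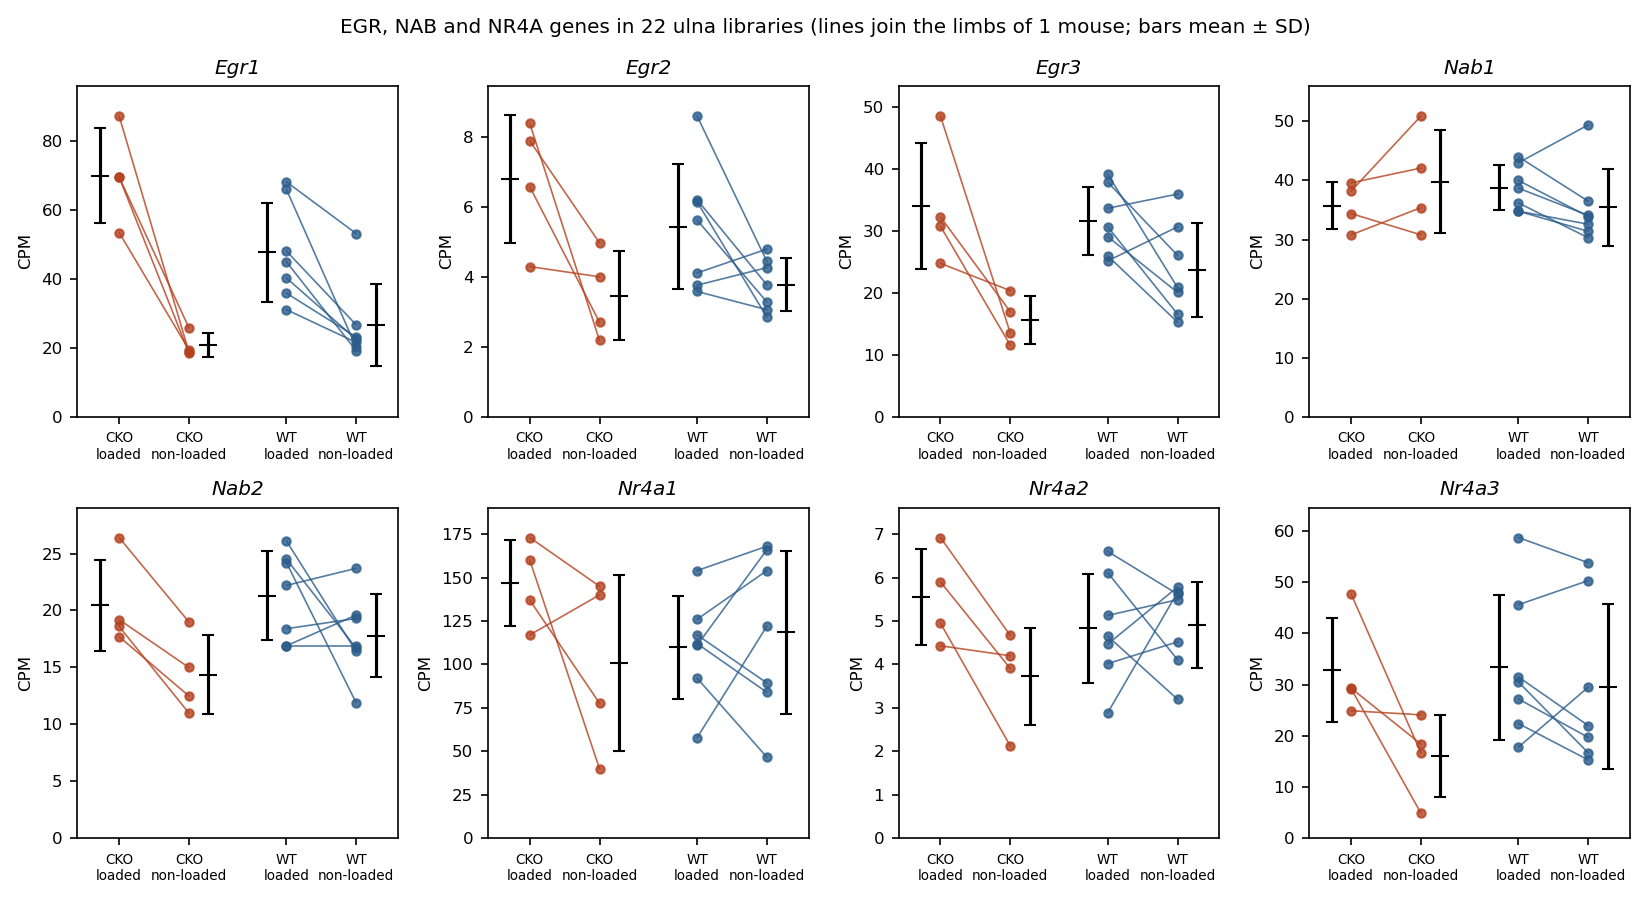
CPM of each gene (vertical axes, linear, from 0) in the 22 libraries, by group; lines join the limbs of 1 mouse and black bars give the mean ± SD (n = 4 CKO, n = 7 WT mice). Egr1 is higher in the loaded limb in all 11 mice, while the lines of Nr4a1 cross.

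Egr3 and Egr2 followed Egr1 in the size of the mean effect without passing the threshold; in CKO mice alone Nr4a3 (1.04) lay between them. Egr3 (ENSMUSG00000033730, chromosome 14, 70077203 to 70082614), which in other tissues acts in muscle spindles and T cells, had 24.8, 30.8, 48.6 and 32.3 CPM in the loaded limbs of CKO mice 688, 691, 693 and 698, against 20.4, 11.6, 13.6 and 17 CPM in their non-loaded limbs. These groups did not overlap. In WT mice it ran from 25.2 over 30.7 to 39.2 CPM in the loaded limbs, against 15.3, 20.9 and 36 CPM in the non-loaded limbs, and the loaded limb exceeded the other in 5 of 7. The log2 fold change of Egr3 was 1.13 ± 0.25 in CKO mice (edgeR adjusted p = 0.294), 0.42 ± 0.19 in WT mice (adjusted p = 1) and 0.77 ± 0.16 in the mean of both (adjusted p = 0.0815). DESeq2 called Egr3 in CKO mice (adjusted p = 0.0153; 0.117% of genes called) and in the mean (0.00217; 0.176%), as did limma voom with quality weights (0.0136 and 0.000698; 0.0958% and 0.479%). Leaving out mouse 687 or mouse 688 also brought Egr3 under the threshold in edgeR for the mean, at adjusted p = 0.0377 and 0.0449 (0.0961% and 0.0789% of genes called). In the other edgeR fits that left out 1 mouse it was not called, with an adjusted p up to 0.589.

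Egr2 (ENSMUSG00000037868, chromosome 10, 67535475 to 67542188), the factor that Schwann cells need for myelin, was a low-level gene here. It had 4.29, 8.38, 7.88 and 6.57 CPM in the loaded limbs of CKO mice 688, 691, 693 and 698, against 4, 2.18, 4.97 and 2.7 CPM in the non-loaded limbs. The groups overlapped only through the loaded library of mouse 688, which stood with the other genotype in Ltbp2. In WT mice it ran from 3.58 over 5.62 to 8.59 CPM in the loaded limbs, against 2.85, 3.77 and 4.79 CPM in the non-loaded limbs. Its log2 fold change was 0.98 ± 0.29 in CKO mice (edgeR adjusted p = 0.739), 0.52 ± 0.22 in WT mice (adjusted p = 1) and 0.75 ± 0.18 in the mean (adjusted p = 0.282; called by DESeq2 at 0.0259). The loaded limb held more Egr2 in 4 of 4 CKO and 5 of 7 WT mice.

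Of the corepressors, Nab2 (ENSMUSG00000025402, chromosome 10, 127660918 to 127668568) is itself an immediate-early gene known to be induced by EGR factors, while Nab1 is made steadily. Nab2 had 19.2, 18.6, 17.7 and 26.4 CPM in the loaded limbs of CKO mice 688, 691, 693 and 698, against 15, 11, 12.5 and 19 CPM in the non-loaded limbs. Each CKO mouse was higher in the loaded limb, and the groups overlapped only because 698 was high in both limbs. In WT mice Nab2 ran from 16.9 over 22.2 to 26.1 CPM in the loaded limbs, against 11.9, 16.9 and 23.7 CPM in the non-loaded limbs, higher in 4 of 7, counting mouse 692, whose limbs both rounded to 16.9 CPM. Its log2 fold change was 0.51 ± 0.2 in CKO mice (edgeR adjusted p = 0.739), 0.26 ± 0.15 in WT mice (adjusted p = 1) and 0.39 ± 0.13 in the mean (adjusted p = 0.861). Nab2 overlaps exons of the opposite-strand genes Stat6 (40 bases), Nemp1 (151 bases) and Gm16229 (829 bases, with 0 to 5 counts per library). The library kit is stranded, but the strand setting of the counting was not given in the sources used here.

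Nab1 (ENSMUSG00000002881, chromosome 1, 52457294 to 52500679) averaged 35.7 ± 3.95 CPM in CKO loaded and 39.8 ± 8.77 CPM in CKO non-loaded libraries (SD, n = 4), and 38.8 ± 3.77 CPM in WT loaded and 35.5 ± 6.48 CPM in WT non-loaded libraries (n = 7). The mean loading effect was -0.01 ± 0.1 on the log2 scale, with a 95% interval from -0.21 to 0.18. Nab1 favoured the loaded limb in 1 of 4 CKO and 6 of 7 WT mice, and its sign in the mean turned with the fit.

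None of the NR4A genes was called with groups only. Nr4a1 (ENSMUSG00000023034, chromosome 15, 101254269 to 101274795), which encodes NUR77, had 117, 160, 173 and 137 CPM in the loaded limbs of CKO mice 688, 691, 693 and 698, against 140, 40, 145 and 77.7 CPM in the non-loaded limbs. In WT mice it ran from 57.9 over 112 to 154 CPM in the loaded limbs, against 46.7, 122 and 168 CPM in the non-loaded limbs. The groups overlapped in both genotypes, and the loaded limb was the higher in 3 of 4 CKO and 3 of 7 WT mice. The log2 fold change of Nr4a1 was 0.55 ± 0.37 in CKO (edgeR adjusted p = 0.739), -0.11 ± 0.28 in WT (adjusted p = 1) and 0.22 ± 0.23 in the mean (adjusted p = 0.999; 95% interval -0.27 to 0.71). The mean was 0.00667 without mice 691 and 699, whose non-loaded limbs were lowest in Nr4a1. Their limb differences, 2 and 0.98 on the log2 scale, were the highest, so that leaving them out lowers the mean by construction.

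Nr4a3 (ENSMUSG00000028341, chromosome 4, 48045153 to 48086447), which encodes NOR1, had 24.9, 29.2, 29.3 and 47.7 CPM in the loaded limbs of CKO mice 688, 691, 693 and 698, against 24.1, 4.93, 18.4 and 16.7 CPM in the non-loaded limbs. These groups stood apart by less than 1 CPM, and mouse 691 alone contributed the lowest non-loaded value. In WT mice it ran from 17.8 over 30.5 to 58.7 CPM in the loaded limbs, against 15.3, 22 and 53.8 CPM in the non-loaded limbs. The loaded limb held more Nr4a3 in 4 of 4 CKO and 5 of 7 WT mice, the same tally as for Egr2 and Egr3. Its log2 fold change was 1.04 ± 0.46 in CKO (edgeR adjusted p = 0.739), 0.17 ± 0.34 in WT (adjusted p = 1) and 0.61 ± 0.28 in the mean (adjusted p = 0.999). Nr4a2 (ENSMUSG00000026826, chromosome 2, 57106830 to 57124003), which encodes NURR1, the receptor that dopamine neurons need, averaged 5.55 ± 1.09 CPM in CKO loaded and 3.73 ± 1.11 CPM in CKO non-loaded libraries (SD, n = 4), and 4.84 ± 1.25 CPM in WT loaded and 4.91 ± 0.989 CPM in WT non-loaded libraries (n = 7). Its log2 fold change was 0.58 ± 0.25 in CKO (edgeR adjusted p = 0.739), -0.02 ± 0.19 in WT (adjusted p = 1) and 0.28 ± 0.16 in the mean (adjusted p = 0.999). Of the 8 members, Egr1, Egr3 and Nr4a3 had CKO limbs that did not overlap with the loaded limbs higher, against 0.958% of all genes, and 0 of 8 had such WT limbs (0.0426% of genes) or limbs of all mice together (0.0213%).

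Without mice 686 and 688, the loading effects in CKO mice were 1.41 ± 0.3 for Egr3, 1.23 ± 0.32 for Egr2, 0.567 ± 0.26 for Nab2 and -0.236 ± 0.17 for Nab1. For the NR4A genes they were 0.849 ± 0.45 for Nr4a1, 0.741 ± 0.31 for Nr4a2 and 1.42 ± 0.56 for Nr4a3 on the log2 scale. In WT mice they were 0.786 ± 0.25 for Egr1, 0.389 ± 0.21 for Egr3, 0.641 ± 0.23 for Egr2, 0.201 ± 0.18 for Nab2, and 0.104 ± 0.12 for Nab1. The NR4A genes gave -0.0758 ± 0.32 for Nr4a1, -0.132 ± 0.22 for Nr4a2 and 0.122 ± 0.38 for Nr4a3. In the mean they were 0.9 ± 0.18 for Egr3, 0.933 ± 0.2 for Egr2, 0.384 ± 0.16 for Nab2, and -0.0662 ± 0.1 for Nab1. Here the NR4A genes gave 0.386 ± 0.27 for Nr4a1, 0.304 ± 0.19 for Nr4a2 and 0.77 ± 0.34 for Nr4a3. None of these passed the edgeR threshold, so that Egr1 in the mean was the member called without these mice.

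Across the 8 members, 6 were higher in the loaded limb of each CKO mouse, the exceptions being Nab1 and Nr4a1, against 5.07% of all genes. At an unadjusted p under 0.05 in edgeR lay 6 of 8 members for loading in CKO mice (3.6% of all genes), 3 of 8, the EGR genes, in WT mice (2.34%) and 5 of 8, the EGR genes with Nab2 and Nr4a3, in the mean of both (3.17%). The members were measured in the same libraries and are not independent counts.

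**Figure D2:**
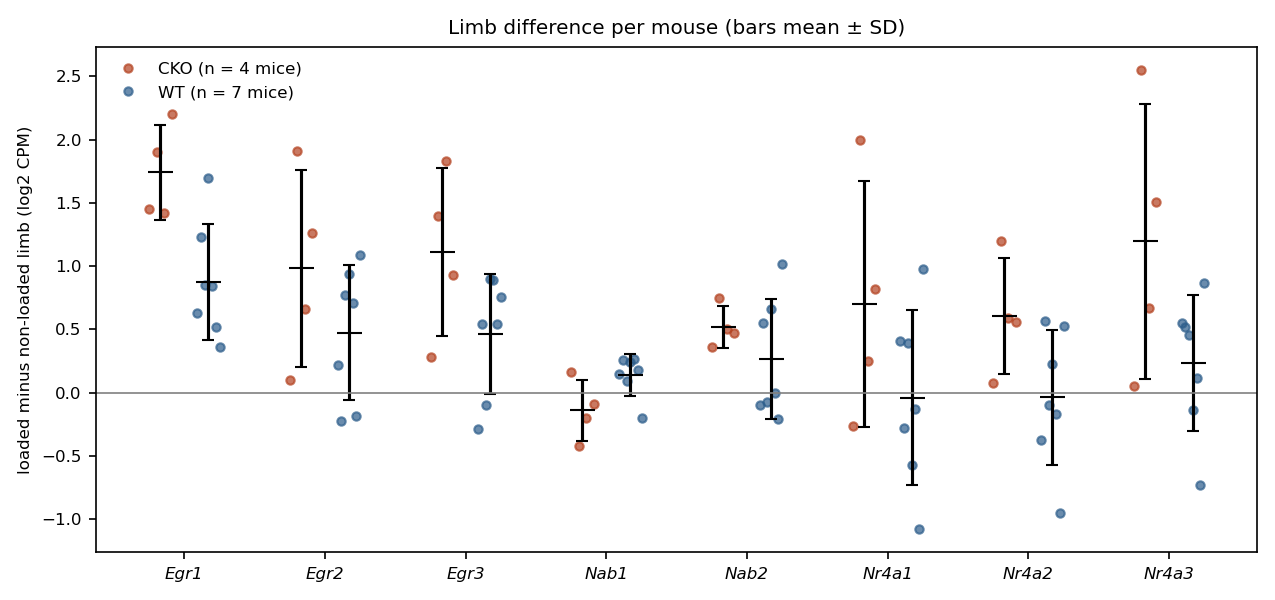
Loaded minus non-loaded limb in log2 CPM (vertical axis) for each mouse and gene; coloured points are mice (4 CKO, 7 WT) and black bars the mean ± SD. Egr1 lies above 0 in all mice, between 1.42 and 2.2 in CKO and between 0.36 and 1.7 in WT, whereas Nr4a1 spans -0.26 to 2 in CKO and -1.08 to 0.98 in WT.

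The limb differences of the NR4A genes moved with the muscle and, in the opposite direction, the marrow content of the 2 limbs. The muscle score, the mean log2 CPM of the 10 muscle markers, differed between the limbs (loaded minus non-loaded) by -0.42, 2.73, 0.26 and 0.81 in CKO mice 688, 691, 693 and 698, and by -1.3 to 1.14 in WT mice. Over the 11 mice the limb difference of Nr4a1 had a Pearson correlation of 0.965 (Spearman 0.918) with that of the muscle score, which was 0.888 without mice 691 and 694, the farthest from the median, and 0.92 within the 7 WT mice. The same values were 0.951 (Spearman 0.909), 0.815 and 0.932 for Nr4a3, and 0.78 (Spearman 0.564), 0.365 and 0.624 for Nr4a2. With the marrow score, the mean log2 CPM of marrow cell markers, the correlations were -0.847 (Spearman -0.691) for Nr4a1, -0.889 (Spearman -0.855) for Nr4a3 and -0.876 (Spearman -0.845) for Nr4a2. Without mice 691 and 698, the farthest on that score, they were -0.743, -0.838 and -0.822. Within WT they were -0.737, -0.835 and -0.888. For Nr4a2 the 0.365 with muscle and the -0.822 with marrow left out different mice and cannot be compared. Within the same 7 WT mice it had 0.624 with muscle and -0.888 with marrow. These correlations describe limbs that share library, depth and dissection, and bear no p.

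Egr1 and Egr3 did not follow the muscle score in this way. Their correlations with it were 0.344 (Spearman 0.218) and 0.262 (Spearman 0.245), and -0.196 and -0.0945 without mice 691 and 694; within WT they were -0.24 and -0.377. Egr2 stood between, at 0.753 (Spearman 0.691), but at 0.346 without those mice. With the marrow score Egr1 stood at -0.427 (0.112 without mice 691 and 698), Egr3 at -0.484 (-0.324) and Egr2 at -0.747 (-0.503). Nab2 stood at 0.564 with muscle (Spearman 0.518), 0.315 without mice 691 and 694 and 0.508 within WT. With marrow it stood at -0.753 (Spearman -0.745), -0.782 without mice 691 and 698 and -0.84 within WT. Nab1 ran the other way, at -0.833 with muscle (Spearman -0.827), -0.737 without mice 691 and 694 and -0.709 within WT, and at 0.775 with marrow (Spearman 0.609).

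With muscle and marrow scores in the fit, the mean loading effect of Nr4a1 was 0.0654 ± 0.14 on the log2 scale, against 0.22 ± 0.23 without them, and its effect in CKO mice was 0.111 ± 0.23, against 0.55 ± 0.37. Nr4a3 gave 0.414 ± 0.19 in the mean and 0.519 ± 0.32 in CKO mice with these covariates. With the mouse as a block as well, Nr4a3 gave 0.478 ± 0.07 and was called (edgeR adjusted p = 0.0104; 51 genes or 0.271% called), alongside Egr1 at 1.34 ± 0.15 (adjusted p = 0.0104). The effect of Egr1 with covariates alone was 1.34 ± 0.2 (edgeR adjusted p = 0.00592; 0.112% called), that of Egr3 0.783 ± 0.17 and that of Egr2 0.625 ± 0.17, both short of the threshold. In RNA of whole bone pieces, fewer cells of a type and less RNA per cell cannot be told apart.

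**Figure D3:**
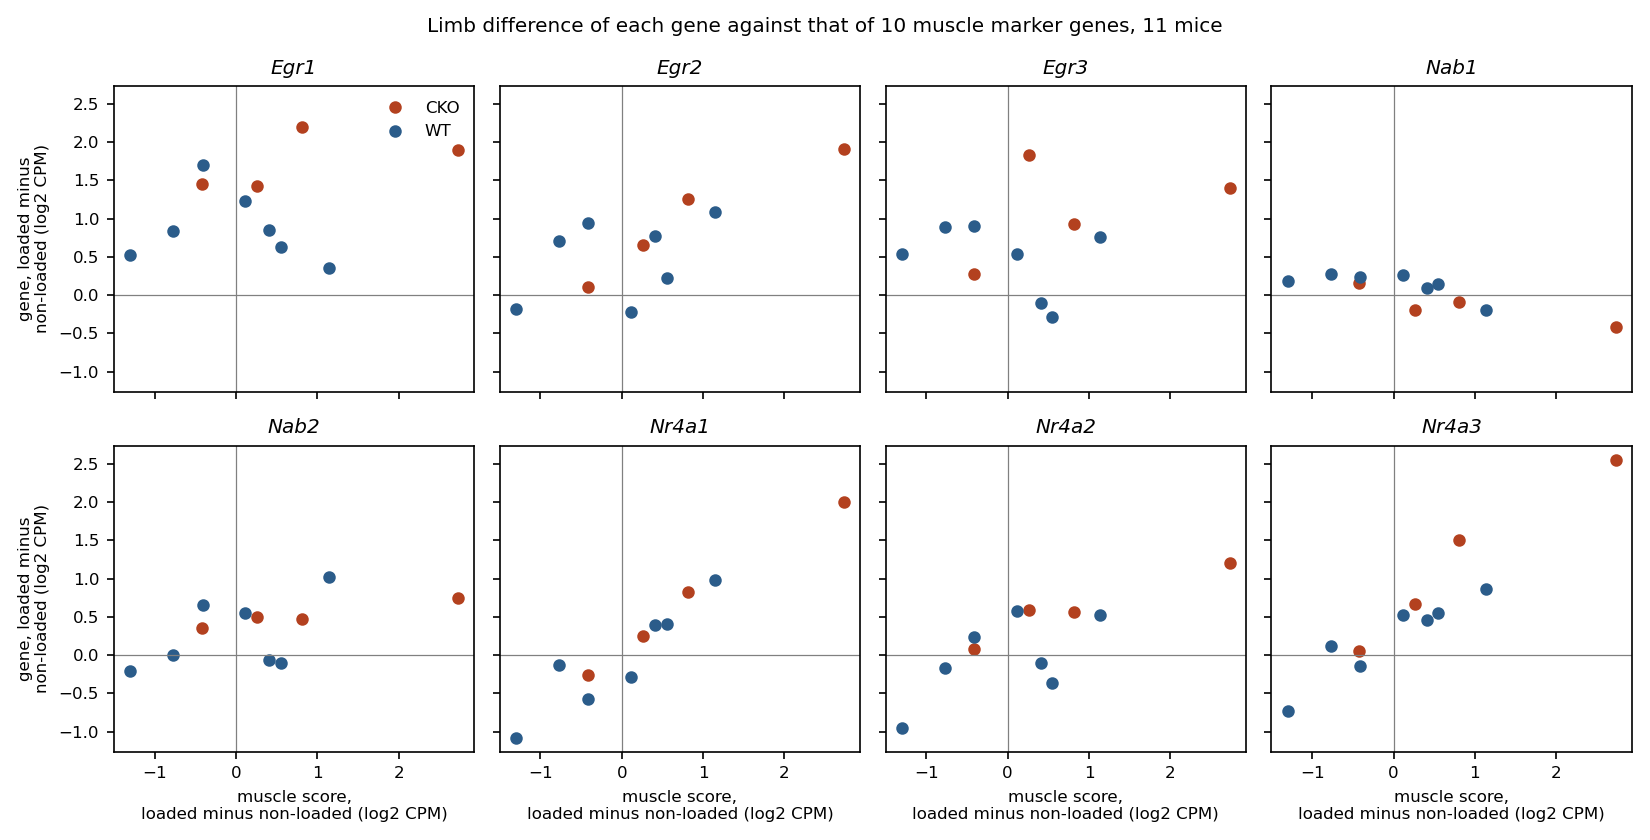
Loaded minus non-loaded difference of each gene against that of the muscle score, both in log2 CPM, 1 point for each of 11 mice. The points of Nr4a1 and Nr4a3 climb with the muscle score (Pearson 0.965 and 0.951), and those of Egr1 lie above 0 at every muscle difference.

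**Figure D4:**
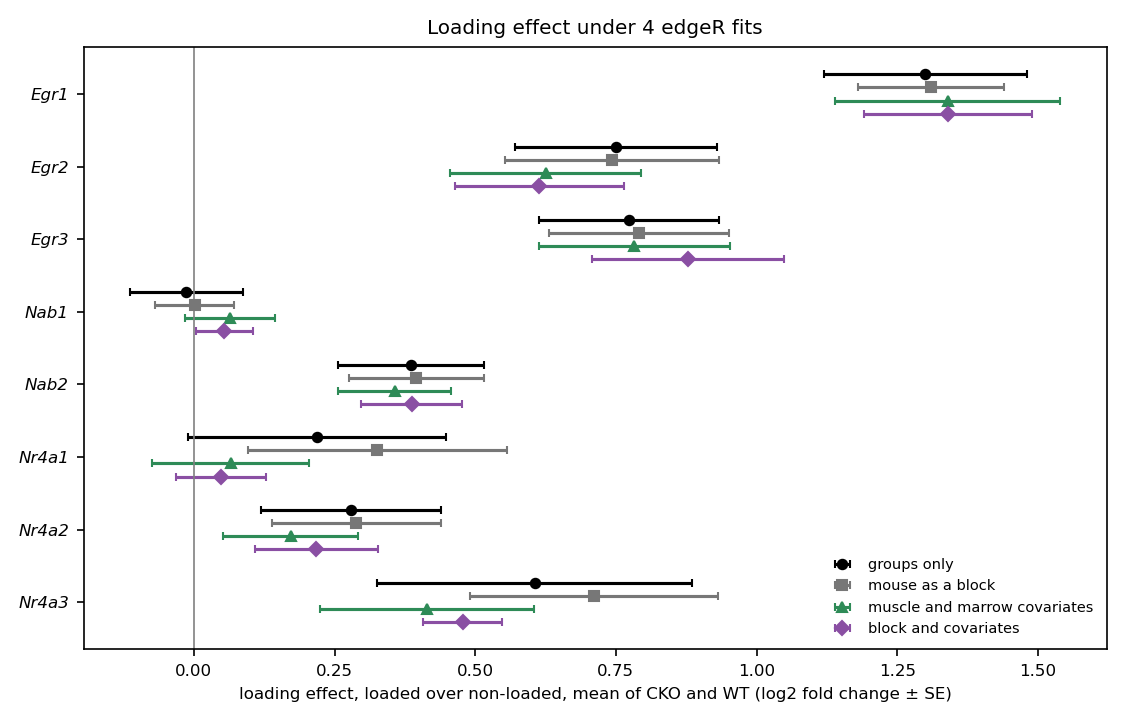
Loading effect of each gene as the mean of CKO and WT (log2 fold change ± SE, horizontal axis) in 4 edgeR fits, with groups only, with the mouse as a block, with muscle and marrow covariates, and with both. Egr1 lies between 1.3 and 1.34 in all of them, while Nr4a1 drops to 0.0654 and 0.0483 with the covariates.

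The genes whose limb differences were most like those of Egr1 and of Nr4a1 over the 11 mice, among 13488 named genes at 1 CPM or more, were of different kinds. For Egr1 the nearest by Pearson correlation was Fos, the immediate-early gene of an AP-1 subunit (Pearson 0.89, Spearman 0.855, and 0.824 without mice 698 and 699). Fbxl7, Tcea2, Smad3, which encodes a TGF-beta signal transducer, Ak4 and Nbas followed, at 0.844 to 0.8. This order changed with the measure, as Fbxl7 had a Spearman correlation of 0.864. Without mice 698 and 699, Fbxl7 (0.931), Ak4 (0.838) and Nbas (0.834) stood above Fos, and Smad3 (0.804) and Tcea2 (0.735) below it. For Nr4a1 the nearest genes were Pdf (0.988, Spearman 0.982), Gpt2, Tmed4, Srpk3, a kinase gene of muscle, Mylk2, the gene of the myosin light chain kinase of skeletal muscle, and Reep1, at 0.987 to 0.984. Picked as the highest among 13488 genes over 11 mice, these correlations are raised by that choice and bear no p. The mean loading effects of Fos, Fbxl7, Tcea2, Smad3, Ak4 and Nbas were 0.73, -0.01, -0.02, 0.3, 0.33 and 0.04, with none called. Among the members themselves the nearest were Nr4a1 and Nr4a3, at 0.952 (Spearman 0.9). Of the 28 pairs of members 21 correlated above 0, and the 7 below 0 were those of Nab1, down to -0.846 with Nr4a1.

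Whether loading acted differently in the knockouts was asked by the difference of the loading effects. All members but Nab1 had a larger loading effect in CKO mice, as had 50.2% of all genes. None passed: the comparison called 0 of 18793 genes in edgeR (2.6% at an unadjusted p under 0.05), DESeq2 and limma voom. Egr1 gave 0.91 ± 0.36 (95% interval 0.17 to 1.66) and Egr3 0.7 ± 0.32 (0.05 to 1.36), each with an edgeR adjusted p = 0.697. Limma voom with quality weights gave a smaller difference for Egr1, 0.356 ± 0.24. With the mouse as a block the differences were 0.87 ± 0.25 for Egr1, 0.95 ± 0.43 for Nr4a3 and 0.65 ± 0.31 for Egr3, each with an edgeR adjusted p = 0.601. At an unadjusted p under 0.05 lay Egr1 and Egr3 without the block, and Egr1 and Nr4a3 with it. The difference for Nr4a1 was 0.65 ± 0.47 and for Nr4a3 0.86 ± 0.57 (both edgeR adjusted p = 0.697), and with muscle and marrow covariates 0.0915 ± 0.29 and 0.211 ± 0.39, against 1.02 ± 0.37 for Egr1 with the same covariates. With them Egr3 gave 0.577 ± 0.32, Nr4a2 0.281 ± 0.24, Egr2 0.214 ± 0.34, Nab2 0.00264 ± 0.2 and Nab1 -0.115 ± 0.17. Without mice 686 and 688 Egr1 gave 1.06 ± 0.42, Egr3 1.02 ± 0.36 and Nr4a3 1.3 ± 0.67 (each edgeR adjusted p = 0.367). These comparisons within CKO and WT share no libraries.

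Between genotypes in the loaded limbs, Egr1 was the only member with an unadjusted p under 0.05 (1.46-fold, log2 0.55 ± 0.25, edgeR adjusted p = 0.601), and 6.81% of all genes lay under that value. Its CKO loaded libraries, at 53.5 to 87.3 CPM, overlapped with the WT loaded libraries, at 31.1 to 68.2 CPM. Without mice 686 and 688, whose loaded libraries stood with the other genotype in Ltbp2, the log2 fold change of Egr1 was 0.655 ± 0.29 (edgeR adjusted p = 0.304). In the non-loaded limbs Egr3 was lower in CKO, by -0.6 ± 0.23 on the log2 scale (edgeR adjusted p = 0.976), as was Nr4a3, by -0.89 ± 0.41 (adjusted p = 0.976); both had an unadjusted p under 0.05, as had 3.04% of all genes. Without those mice Egr3 gave -0.731 ± 0.26 and Nr4a3 -1.21 ± 0.5 (both edgeR adjusted p = 0.779). Neither comparison called a gene in edgeR at an adjusted p under 0.05; DESeq2 and limma voom each called 0 in the loaded and 2 in the non-loaded limbs, none of them a member.

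Of 26 listed inputs (serum response factor and its ELK and MRTF partners, CREB and CRTC factors, MEF2 factors and the ERK and PKA kinases) 0 passed in any comparison, and the median of their mean loading effects was 0.04 on the log2 scale, against -0.01 over all genes; the smallest p-values were those of Crem, Mef2d and Elk4, at 0.19 ± 0.12, 0.14 ± 0.1 and 0.07 ± 0.05. Of 7 cofactors of NAB and EGR proteins and of 5 NR4A partners, among them the retinoid X receptor genes, 0 passed, with medians of -0.03 and 0.02. No comparison of the main fit called more than 0.0905% of all genes, a share at which lists of this size would hold 0. Above 0 in the mean loading effect lay 17 of 26 inputs, 2 of 7 cofactors and 4 of 5 partners, against 45.7% of all genes. The cofactors with the smallest p-values were Hdac1 (-0.16 ± 0.13), Chd3 (-0.07 ± 0.07) and Sp1 (-0.05 ± 0.07), and the partners Rxrg (0.16 ± 0.28), Rcor1 (-0.05 ± 0.13) and Rxra (0.05 ± 0.12). The genes Egr4 and Wt1, next to the EGR factors in sequence, were not analysed here.

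The gene lists, like the members, were chosen with earlier results of these data known, so their counts are description and not a test. Of 15 genes known as EGR1 targets in other cells, 12 lay above 0 in the mean loading effect, against 45.7% of all genes, with a median of 0.23. Of the 15, 1 was called higher and 0 lower, against 0.0905% of all genes called. This was Arc, a gene of synapses and also itself immediate-early, at 1.1 ± 0.21 (edgeR adjusted p = 0.0389) and with more in the loaded limb of all 11 mice. Of 10 other immediate-early genes, 10 lay above 0 with a median of 0.42 and 1, Fosb, was called, against the same 45.7% and 0.0905% of all genes (2.06 ± 0.23, edgeR adjusted p = 9.03e-05); Fosl1 gave 3.44 ± 0.71 (adjusted p = 0.0815) and Atf3 1.13 ± 0.31 (0.541).

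Of 7 metabolic genes known as NR4A targets in muscle, 7 lay above 0 in CKO mice (48.3% of all genes) with a median of 0.51, and 0 of 7 in WT mice (47.7%) with a median of -0.09. Of these 7, 0 passed in any comparison, and no comparison called more than 0.0905% of all genes. Lpin1, of lipid metabolism, and the glycolytic enzyme genes Pfkm and Eno3 gave mean loading effects of 0.22 ± 0.23, 0.23 ± 0.26 and 0.23 ± 0.27. The muscle score differed between the limbs in the same direction in 3 of 4 CKO mice; the part of muscle content in these medians was not tested. Of 6 myelin genes that need EGR2 in Schwann cells, 5 lay above 0 in CKO mice and 1 in WT mice, with 0 passed; Gjb1, Pmp22 and Mag gave mean loading effects of 0.54 ± 0.45, 0.11 ± 0.19 and -0.08 ± 0.15. The 5 Schwann cell markers summed to 90.3 to 257 CPM in CKO loaded, 98.8 to 200 in CKO non-loaded, 87.2 to 173 in WT loaded and 78.2 to 212 CPM in WT non-loaded libraries.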

How the data were processed

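Ulnae were kept in RNAlater, milled in Trizol and made into stranded total RNA libraries from 4 ng of RNA, per the labels' protocols. STAR, RSEM and the build GRCm38 are named per the submitters' processing notes, with versions, annotation and strand setting not given in the sources used here. What the authors deposited are expected counts per Ensembl gene, already whole numbers, made from the aligned reads and not normalized. Of 25471 genes, 25428 had a symbol. GENCODE M21 (GRCm38) gave coordinates, exon lengths and overlaps, and RefSeq the sequences.

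Genes were tested in R 4.3.3 with edgeR 4.0.16, with DESeq2 1.42.0 and limma 3.58.1 as alternatives. After filterByExpr (18793 genes) and TMM scaling, 1 model with a mean for each of 4 groups (18 residual degrees of freedom) was fitted with glmQLFit and glmQLFTest, with Benjamini-Hochberg adjustment over all genes, called under 0.05. The SE is the log2 fold change divided by the square root of F, and 95% intervals use the fit's degrees of freedom. Log2 CPM used a prior count of 2.

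Both limbs of a number are 1 animal, so the numbers pair the samples; their deviations from the group means correlated at -0.256 to 0.415 (median 0.189), over 0.1 in 7 of 11 mice. The members and lists were chosen with earlier results of these data known. Named genes were the 8 members, called members of each list plus the 3 with the smallest p for the mean loading effect, and the 6 genes nearest to Egr1 and Nr4a1. Some genes that this rule names are not reported here. Replicates are mice by number. The main fit took the limbs of a mouse as independent libraries, so its p-values measure the spread between libraries within a group. With the mouse as a block (9 residual degrees of freedom), p-values for loading measure the spread of the limb difference between mice.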

Additional observations from a re-analysis of the deposited data

Results flagged for a closer look

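Of 48 groups of values tested for a stray sample (CPM of each member by group, and limb differences by genotype), 4 held 1, where chance gives about 1 in 20. Egr1 in the CKO non-loaded limb of mouse 693 was 25.9 CPM, above 18.6 to 19.5 CPM in the other 3 mice. Egr1 in the WT non-loaded limb of mouse 699 was 53.2 CPM, above 19.2 to 26.7 CPM in the other 6. Nab1 in the same library was 49.4 CPM, above 30.3 to 36.5 CPM, and the limb difference of Nab1 in mouse 699 was -0.2 on the log2 scale, below 0.09 to 0.27 in the other WT mice. That library also had the lowest muscle score of the WT libraries, 10.37, and the highest marrow score, 7.55; the part of tissue content in these values was not tested.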

How the results depend on the processing

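Over 48 member results, 24 alternative settings gave 1088 values, of which 1030 kept direction and side of the threshold, 14 lost a call, 10 gained one and 34 changed sign. The replicate block by mouse changed no call of a member; Egr1 in CKO mice was 1.75 (adjusted p = 0.0181) with it. Members called for loading in CKO mice numbered 1 and became 2 with DESeq2 and with voom (Egr1 and Egr3), 0 with muscle and marrow covariates, with these and the block, with only the 2 groups compared, and without mice 686 and 688 with or without the block, and 0 to 1 on leaving out 1 mouse (called without 690 or 699 only). For loading in CKO mice the share of all genes called was 0.016% in the main fit, 0.117% with DESeq2 and 0.0958% with voom. It was 0.00532% with covariates and 0.0106% with these and the block. In WT mice 0 became 1 with voom and 0 to 1 on leaving out 1 mouse. The share of all genes called in WT mice was 0.00532% in the main fit and 0.181% with voom. For the mean, 1 became 3 with DESeq2 (Egr1, Egr2, Egr3), 2 with voom, 2 with block and covariates (Egr1, Nr4a3) and 1 to 2 on leaving out 1 mouse. The share of all genes called in the mean also rose, from 0.0905% to 0.176% with DESeq2, 0.479% with voom and 0.271% with block and covariates. The cause of these changes was not tested.

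No value that changed sign had been called. Between genotypes in loaded limbs Nab2 gave 0.0214 without 686 and 688 and 0.0674 without 691 and 699, Nr4a2 -0.0108 with covariates, and Nr4a3 0.00418 with median-ratio scaling, 0.00395 with DESeq2, 0.086 without 686 and 688 and 0.0659 without 691 and 699. Egr1 gave 0.104 with voom in non-loaded limbs. For loading, Nab1 gave 0.00691 in CKO mice with covariates; in WT mice Nr4a1 gave 0.0197 with covariates and 0.000141 with the block too, Nr4a2 0.0312 and 0.0806 likewise, and Nr4a3 -0.129 with voom. In the mean Nab1 gave 0.00188 with the block, 0.058 with voom, 0.0645 with covariates, 0.0543 with both block and covariates and 0.0736 without 691 and 699, and Nr4a1 -0.00126 with voom. On leaving out 1 mouse, ranges that crossed 0 were, between genotypes in loaded limbs, -0.113 to 0.248 for Egr3, -0.199 to 0.0086 for Nab2 and -0.259 to 0.169 for Nr4a3; in non-loaded limbs, -0.363 to 0.0336 for Egr2 and -0.465 to 0.0269 for Nr4a1; for loading in WT mice, -0.206 to 0.00745 for Nr4a1 and -0.14 to 0.104 for Nr4a2; and in the mean, -0.054 to 0.044 for Nab1. With 4 CKO mice, and Egr2 at 77 counts in its lowest library, small differences could not be detected.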
